A study of Mus musculus with 12 samples.

Results

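A set of 10 genes of necroptosis and of cell death through death receptors was followed in RNA of the mouse striatum after ischemic stroke: Ripk1, Ripk3, Mlkl, Zbp1, Casp8, Fadd, Cflar, Fas, Tnfrsf1a and Tnfrsf1b. They were chosen by name, as the rows whose Ensembl ID carries one of these symbols, and make up 10 of the 54532 genes counted. All 10 were among the 19822 genes that passed the filter on low counts and were tested. The libraries fall into 6 groups of 2, all of strain C57BL/6J and all labelled as ischemic stroke: WT, cGAS-KO and STING-KO, each at 7 and at 14 days. Both deficient lines were made with CRISPR-Cas9. cGAS is an enzyme that senses DNA in the cytosol, and STING is the adaptor its product activates. The labels give no age, sex or number of founder lines and name no uninjured group, so every level below is a level after stroke. They also do not say whether 2 libraries of a group came from separate mice, so each p-value reflects only how far these libraries vary, which may be technical.

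Death receptors at the cell surface bind ligands of the TNF family and recruit adaptor proteins and the kinase RIPK1. From there a cell can switch on NF-kB target genes, enter apoptosis through FADD and caspase-8, or, where caspase-8 is not active, enter necroptosis. In necroptosis RIPK3 phosphorylates MLKL, which then damages the plasma membrane, and ZBP1, an interferon-induced sensor of Z-form nucleic acids, can activate RIPK3 without a death receptor.

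Library totals ran from 15956242 to 22126213 counts, and a count of 3, used here as the floor of detection, equals 0.133 to 0.195 CPM (each count as a share of the TMM-scaled library total). Transcripts of the targeted genes were higher in their own labelled knockout than in WT at 7 days. Cgas had 5.55 and 5.66 CPM in the 7-day cGAS-KO libraries against 3.25 and 2.97 CPM in WT. Tmem173, the gene of STING, had 20.9 and 23.8 CPM in 7-day STING-KO against 2.80 and 2.71 CPM in WT. Between the 7-day labelled knockouts each was lower in its own, since Cgas had 11.2 and 12.6 CPM in STING-KO and Tmem173 had 28.7 and 30.3 CPM in cGAS-KO. At 14 days each was lower in its own labelled knockout than in WT, Cgas at 4.09 and 6.15 against 12.6 and 7.68 CPM and Tmem173 at 2.40 and 5.21 against 22.3 and 20.8 CPM, but Cgas was also low in 14-day STING-KO, at 4.50 and 3.58 CPM. Genotype names are therefore used as labels, and each direction is one between libraries labelled so. The 7-day WT and the 14-day STING-KO libraries stood apart at the low end of the first principal component (47.1% of the variance of log2 CPM). They scored from -134 to -94 there, against -14.2 to 18.7 for the other 14-day libraries. The 7-day libraries of both labelled knockouts lay at the opposite end, at 96.3 to 121. Both groups at the low end differed from each other on the second component (22.1%). Its scores were 108 and 119 in 7-day WT and -66.1 and -55.7 in 14-day STING-KO. The summed level of 15 microglia and macrophage markers was 419 to 488 CPM in 7-day WT and 666 to 1640 CPM in 14-day STING-KO. It reached 4220 to 5070 CPM in the other 14-day libraries and 8880 to 12800 CPM in the 7-day libraries of the labelled knockouts. The 10 neuronal markers summed to 7050 to 7510 CPM in 7-day WT and to 4900 CPM or less elsewhere. Markers of striatal projection neurons, the defining neurons of the labelled tissue, were all detected, but summed to only 220 to 531 CPM at 7 days, against 907 to 1150 CPM in 14-day WT, 1810 to 2930 CPM in 14-day cGAS-KO and 6600 to 7030 CPM in 14-day STING-KO. Fibroblast and mural cell markers summed to 3450 to 5380 CPM in 7-day cGAS-KO and 2010 to 2480 CPM in 7-day STING-KO against 650 CPM or less elsewhere, and monocyte markers to 690 to 1520 CPM in both against 345 CPM or less. Cortical and hippocampal neuron markers summed to 2940 to 3520 CPM in 7-day WT against 887 CPM or less elsewhere, and choroid plexus markers to 2570 to 4610 CPM in the 7-day libraries of the labelled knockouts against 708 CPM or less elsewhere.

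The promoters of the genes are shown here because interferon and cytokine signals act through short DNA elements, and several members are known as interferon-responsive genes. RefSeq promoter windows (GRCm38.p6, the assembly of mm10) were found for 9 of the 10 members, 10 windows in all, each from 250 bases before to 50 bases after a gene start. None was found for Zbp1, whose promoter was therefore not searched. They were searched on both strands for GAAA followed by any 2 bases and a further GAAA, the core of the interferon-stimulated response element, and for TTCNNNGAA, the core of the gamma-activated sequence. The first was found in 3.44% of all 32851 windows in the table and the second in 8.3%. The 4 stretches below hold the matches of both kinds in Ripk1 and Tnfrsf1b and those of the second kind in Tnfrsf1a and Fas. They read 5′ to 3′ along the gene and end 5 bases past the start, with the matching bases in capitals.
Ripk1 second start, chr13:34002624-34002878, plus strand: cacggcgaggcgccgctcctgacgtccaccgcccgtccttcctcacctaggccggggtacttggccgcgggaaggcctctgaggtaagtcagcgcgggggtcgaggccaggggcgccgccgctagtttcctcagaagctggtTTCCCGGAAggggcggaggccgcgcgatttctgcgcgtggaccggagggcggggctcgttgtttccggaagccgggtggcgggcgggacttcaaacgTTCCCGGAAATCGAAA
Tnfrsf1b, chr4:145246866-145247120, minus strand: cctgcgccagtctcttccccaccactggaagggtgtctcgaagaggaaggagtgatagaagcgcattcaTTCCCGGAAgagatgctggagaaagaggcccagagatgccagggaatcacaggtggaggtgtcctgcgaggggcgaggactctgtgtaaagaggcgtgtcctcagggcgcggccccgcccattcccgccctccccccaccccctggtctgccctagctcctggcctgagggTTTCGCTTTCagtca
Tnfrsf1a, chr6:125349473-125349727, plus strand: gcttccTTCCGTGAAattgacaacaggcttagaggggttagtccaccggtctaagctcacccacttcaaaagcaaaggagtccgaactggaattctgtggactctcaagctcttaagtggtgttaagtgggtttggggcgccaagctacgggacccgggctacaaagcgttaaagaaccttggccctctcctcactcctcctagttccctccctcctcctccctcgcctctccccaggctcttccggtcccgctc
Fas, chr19:34290409-34290663, plus strand: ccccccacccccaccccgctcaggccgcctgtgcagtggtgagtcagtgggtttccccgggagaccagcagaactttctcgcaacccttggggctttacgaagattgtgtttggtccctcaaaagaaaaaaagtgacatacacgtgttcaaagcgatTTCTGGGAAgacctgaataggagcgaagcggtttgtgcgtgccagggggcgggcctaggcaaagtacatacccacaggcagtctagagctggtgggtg
The Ripk1 stretch lies at the second of its RefSeq starts. It holds TTCNNNGAA at positions -108 and -11 from the start, and the latter overlaps GAAATCGAAA, which begins at -5. In Tnfrsf1b the response element core lies on the opposite strand and therefore reads TTTCGCTTTC, at -10, and the gamma-activated core lies at -181. In Tnfrsf1a the gamma-activated core lies at -244 and in Fas at -93. These positions count from the RefSeq start of the window, which can differ from the start of the annotated gene. The Tnfrsf1a window begins at 125349473, inside the gene annotated from 125349362. The Casp8 window begins at 58802252, inside the gene annotated from 58795374. Cflar has the response element core on the opposite strand, at 6 bases past its start. Neither set of letters was found in the windows of Ripk3, Mlkl, Casp8 and Fadd or at the first Ripk1 start. A match is a description of the letters and not a measured binding site.

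Across the 12 libraries all 10 genes had their lowest group mean in 7-day WT. For Ripk3, Fadd and Tnfrsf1a the 7-day WT range overlapped that of 14-day STING-KO, the next group up. The share of all tested genes with their lowest mean in 7-day WT was not computed. The ratio of the highest to the lowest group mean was 73.1 for Zbp1, 35.1 for Tnfrsf1b, 24.9 for Ripk3, 22.2 for Mlkl and 16.7 for Casp8. It was smaller for Tnfrsf1a (13.3), Ripk1 (6.71), Fadd (5.92), Fas (4.75) and Cflar (3.53). The ratio and rank of Zbp1 are uncertain, since its lowest mean rests on 10 counts and 1 count, the latter under the floor. The highest group was one of the 7-day labelled knockouts for 8 of the genes and 14-day WT for Zbp1 and Fas. Per length of transcript, as mean RPKM over all 12 libraries, the receptors Tnfrsf1a (26.7) and Tnfrsf1b (15.6) were the most abundant. Casp8 (8.46) and Cflar (4.99) followed, then Fas (3.26), Ripk1 (2.61), Zbp1 (2.44) and Fadd (2.17), and the necroptosis kinase Ripk3 (1.41) and its substrate Mlkl (1.01) were the scarcest. In bulk RNA, fewer cells of a type and less RNA per cell cannot be told apart, which holds for each difference below.

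**Figure D1:**
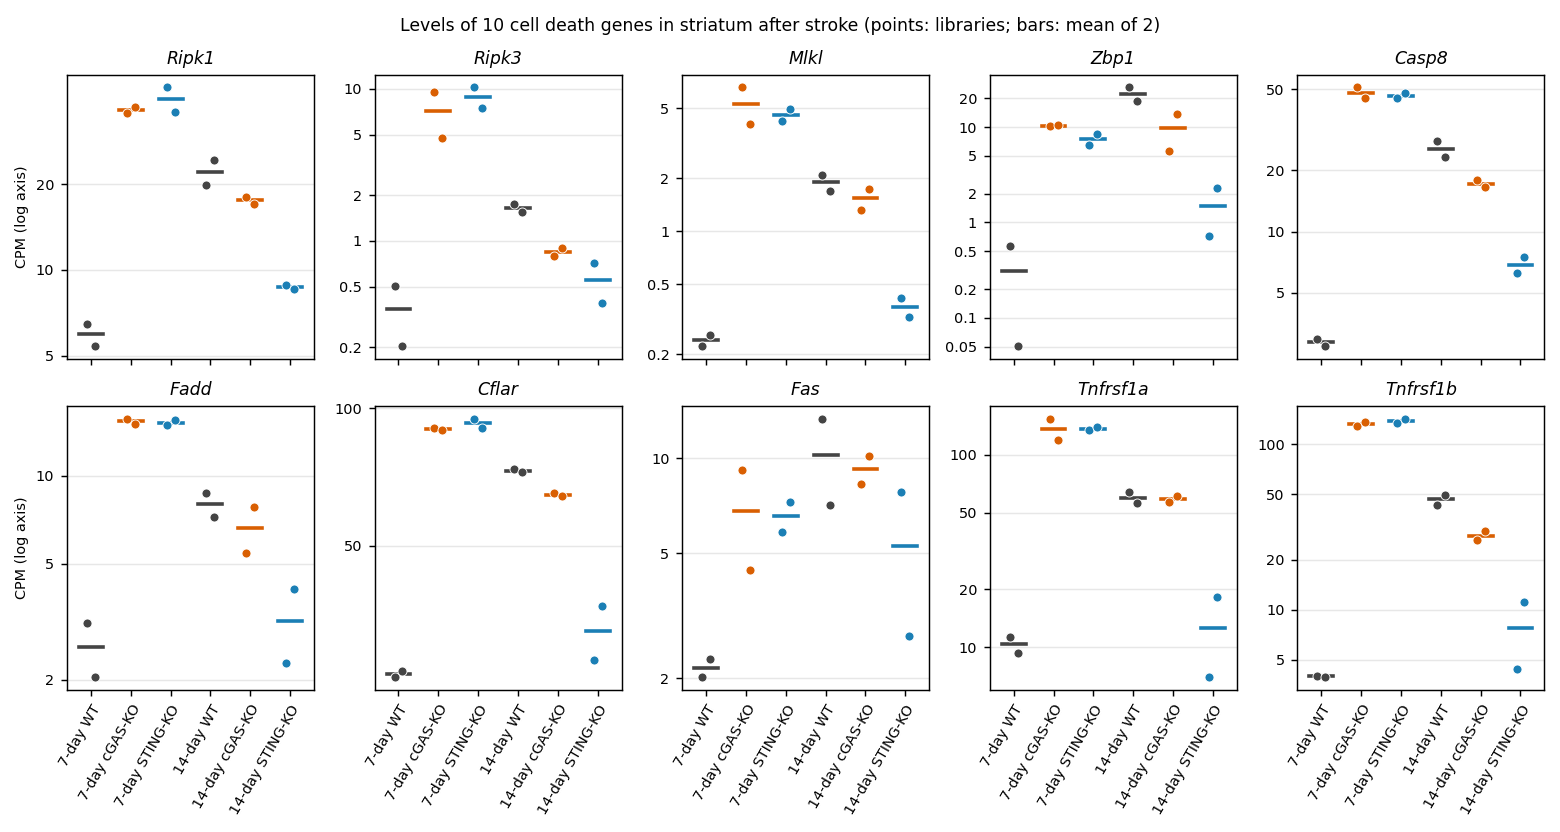
Level of each of the 10 genes (CPM, log axis) in every library, by group of day and labelled genotype; each point is 1 library. All 10 genes have their lowest group mean in 7-day WT, though its range overlaps that of 14-day STING-KO for Ripk3, Fadd and Tnfrsf1a. Zbp1 and Fas have their highest in 14-day WT, where Zbp1 had 26.0 and 18.7 CPM.

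The receptors open the pathway. Tnfrsf1a (ENSMUSG00000030341; mm10, chromosome 6, 125349362 to 125362484, plus strand) encodes TNFR1, the TNF receptor with a death domain. It had 11.3 and 9.36 CPM in 7-day WT, 154 and 119 CPM in 7-day cGAS-KO and 134 and 139 CPM in 7-day STING-KO. At 14 days its levels were 63.6 and 56.0 CPM in WT libraries, 56.8 and 60.7 CPM in cGAS-KO and 7.02 and 18.2 CPM in STING-KO. The 14-day WT and cGAS-KO ranges overlapped, as did those of the 7-day labelled knockouts, and the 14-day STING-KO range enclosed that of 7-day WT. Tnfrsf1b (ENSMUSG00000028599; chromosome 4, 145213463 to 145246870, minus strand) encodes TNFR2, which lacks a death domain and signals mainly for survival. It had 3.98 and 3.94 CPM in 7-day WT, 128 and 137 CPM in 7-day cGAS-KO and 135 and 143 CPM in 7-day STING-KO. It had 43.2 and 49.6 CPM in 14-day WT, 26.4 and 29.7 CPM in 14-day cGAS-KO and 4.38 and 11.1 CPM in 14-day STING-KO. For this receptor the 14-day groups did not overlap one another, while the 7-day labelled knockouts did. Fas (ENSMUSG00000024778; chromosome 19, 34290666 to 34327772, plus strand) encodes the death receptor for FAS ligand. It had 2.02 and 2.30 CPM in 7-day WT, 9.17 and 4.42 CPM in 7-day cGAS-KO and 5.85 and 7.26 CPM in 7-day STING-KO. Its 14-day levels were 13.4 and 7.13 CPM in WT libraries, 8.28 and 10.2 CPM in cGAS-KO and 7.80 and 2.73 CPM in STING-KO. Apart from 7-day WT, each Fas range overlapped that of its neighbour in the order of group means.

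The adaptors and regulators of caspase-8 come next. Fadd (ENSMUSG00000031077; chromosome 7, 144577318 to 144582463, minus strand) encodes the adaptor that brings caspase-8 to death receptors. It had 3.14 and 2.05 CPM in 7-day WT, 14.9 to 15.7 CPM in the 4 other 7-day libraries, 5.43 to 8.76 CPM in 14-day WT and cGAS-KO and 2.28 and 4.10 CPM in 14-day STING-KO. Casp8 (ENSMUSG00000026029; chromosome 1, 58795374 to 58847503, plus strand) encodes the initiator caspase that cleaves RIPK1 and RIPK3 and so holds back necroptosis. It had 2.97 and 2.76 CPM in 7-day WT, 50.9 and 45.1 CPM in 7-day cGAS-KO and 45.1 and 47.7 CPM in 7-day STING-KO. At 14 days it had 27.7 and 23.2 CPM in WT libraries, 17.9 and 16.5 CPM in cGAS-KO and 6.24 and 7.49 CPM in STING-KO. Casp8 thus ran in 5 separate steps, since only the 7-day labelled knockouts overlapped. Cflar (ENSMUSG00000026031; chromosome 1, 58711508 to 58758884, plus strand) encodes cFLIP, a caspase-8 relative without protease activity that restrains it. It had 25.9 and 26.6 CPM in 7-day WT, 89.5 to 94.9 CPM in the 4 other 7-day libraries, 73.6 and 72.4 CPM in 14-day WT, 65.1 and 64.3 CPM in 14-day cGAS-KO and 28.2 and 37.0 CPM in 14-day STING-KO. Cflar had the same order of 14-day groups as Casp8 over a narrower range, and the ranges of the 7-day labelled knockouts overlapped.

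Of the necroptosis genes proper, Ripk3 and Mlkl were low in most libraries. Ripk1 (ENSMUSG00000021408; chromosome 13, 34002363 to 34037147, plus strand) encodes the kinase shared by survival, apoptosis and necroptosis signalling. It had 6.45 and 5.42 CPM in 7-day WT, 35.5 to 43.8 CPM in the 4 other 7-day libraries, 19.9 and 24.4 CPM in 14-day WT, 18.0 and 17.1 CPM in 14-day cGAS-KO and 8.88 and 8.60 CPM in 14-day STING-KO. Ripk3 (ENSMUSG00000022221; chromosome 14, 55784995 to 55788865, minus strand) had 0.505 and 0.205 CPM in 7-day WT, which is 9 and 4 counts, 9.53 and 4.73 CPM in 7-day cGAS-KO and 10.2 and 7.47 CPM in 7-day STING-KO. By 14 days it stood at 1.75 and 1.54 CPM in WT libraries, 0.801 and 0.899 CPM in cGAS-KO and 0.72 and 0.391 CPM in STING-KO, the latter 12 and 6 counts. All 14-day Ripk3 levels lay below those of the 7-day labelled knockouts. Mlkl (ENSMUSG00000012519; chromosome 8, 111311797 to 111338177, minus strand) had 0.224 and 0.256 CPM (4 and 5 counts) in 7-day WT, 6.58 and 4.06 CPM in 7-day cGAS-KO and 4.24 and 4.93 CPM in 7-day STING-KO. Its 14-day levels were 2.10 and 1.70 CPM in WT libraries, 1.33 and 1.75 CPM in cGAS-KO and 0.42 and 0.326 CPM (7 and 5 counts) in STING-KO. As for Ripk3, all 14-day levels of Mlkl lay below those of the 7-day labelled knockouts, but its 14-day WT and cGAS-KO ranges overlapped. Zbp1 (ENSMUSG00000027514; chromosome 2, 173206612 to 173218923, minus strand) went another way: it had 0.561 and 0.0511 CPM in 7-day WT, which is 10 counts and 1 count, 10.3 and 10.4 CPM in 7-day cGAS-KO and 6.42 and 8.53 CPM in 7-day STING-KO. At 14 days it had 26.0 and 18.7 CPM in WT libraries, 5.61 and 13.8 CPM in cGAS-KO and 0.72 and 2.28 CPM in STING-KO. Both 14-day WT libraries exceeded all other libraries for Zbp1. Reads of Ripk1 and of Fadd are uncertain where other genes overlap them, and whether reads were counted by strand is not given in the sources used here. Ripk1 shares 241 exonic bases with Serpinb6a on the opposite strand (27.1 to 179 CPM), and 511 with the pseudogene Gm17084 on the same strand, which had 0 counts in every library. Fadd shares 239 with its antisense RNA Faddos (0.302 CPM at most).

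At 7 days all 10 genes were higher in cGAS-KO libraries than in WT, where 27.8% of all tested genes were higher and 22.4% lower. The median log2 change of the 10 was 3.9, against 0.04 over all genes, and the libraries of both groups separated for all 10, as they did for 80.2% of genes. The steepest rises were those of Zbp1 (5.10 ± 0.73, SE; edgeR adjusted p = 0.00014) and Tnfrsf1b (5.06 ± 0.32, adjusted p = 5.84e-07). Mlkl rose by 4.42 ± 0.47 (adjusted p = 1.24e-05), Ripk3 by 4.32 ± 0.53 (adjusted p = 3.95e-05) and Casp8 by 4.06 ± 0.20 (adjusted p = 1.44e-07). Tnfrsf1a rose by 3.73 ± 0.34, Ripk1 by 2.62 ± 0.19, Fadd by 2.57 ± 0.31 and Cflar by 1.78 ± 0.15, with adjusted p of 3.16e-05 at most. Fas rose least, by 1.63 ± 0.53 (adjusted p = 0.0235). All 15 microglia and macrophage markers rose as well, by a median of 4.38, as did all 8 monocyte markers (5.19), all 10 fibroblast and mural cell markers (3.28), all 8 choroid plexus markers (4.72) and all 8 endothelial markers (1.66). All 10 neuronal markers fell, by a median of -2.19. Of 8 cortical and hippocampal neuron markers 6 fell (median -1.94), while of 12 striatal projection neuron markers 2 rose and 1 fell (0.41). The part of these cell types in the results was not tested. The Fas call was lost without 7-day WT replicate 1 (adjusted p = 0.109) or 2 (0.0905) or 7-day cGAS-KO replicate 1 (0.218), and ranged from 0.00495 to 0.218 over all settings; without the latter library its change was 0.99. Without 7-day WT replicate 1 the change of Zbp1 was 7.47 and that of Ripk3 5.05, without WT replicate 2 that of Zbp1 was 4.20, and without cGAS-KO replicate 1 that of Ripk3 was 3.70.

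The 7-day libraries labelled STING-KO gave the same 10 of 10 against WT, where 26.3% of all genes were higher and 22.6% lower. Both 7-day comparisons share the WT libraries. The median of the 10 was 3.87, against 0.03 over all genes, and all 10 separated, as did 80.9% of genes. Tnfrsf1b rose by 5.13 ± 0.32 (edgeR adjusted p = 4.44e-07), Ripk3 by 4.64 ± 0.52 (adjusted p = 2.03e-05), Zbp1 by 4.63 ± 0.75 (adjusted p = 0.000378) and Mlkl by 4.22 ± 0.48 (adjusted p = 2.17e-05). The rises of Casp8 (4.01 ± 0.20), Tnfrsf1a (3.73 ± 0.34), Ripk1 (2.75 ± 0.19), Fadd (2.55 ± 0.31) and Cflar (1.82 ± 0.15) had adjusted p of 3.56e-05 at most. Fas rose by 1.60 ± 0.53 (adjusted p = 0.0267). The 15 microglia and macrophage markers rose here too, by a median of 4.53, with 7 of 8 monocyte markers (median 4.01), all 10 fibroblast and mural cell markers (2.38), all 8 choroid plexus markers (4.36) and 7 of 8 endothelial markers (1.12). The 10 neuronal markers fell, by a median of -1.74. Of 8 cortical and hippocampal neuron markers 7 fell (median -1.88), while of 12 striatal projection neuron markers 2 rose and 1 fell (0.76). The part of these cell types was not tested. The Fas call was lost without either WT library (adjusted p = 0.121 without replicate 1 and 0.0991 without replicate 2), without either STING-KO library (0.0546 and 0.127) and with no filter on low counts (0.0512), over a full range of 0.00245 to 0.127. Without 7-day WT replicate 1 the change of Zbp1 was 6.99 and that of Ripk3 5.36, and without WT replicate 2 that of Zbp1 was 3.73.

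Set against each other at 7 days, the labelled knockouts differed in none of the 10 genes by edgeR's quasi-likelihood test, with 0 at an unadjusted p below 0.05 and 0 by DESeq2, where 0.161% of all genes were called. Log2 changes, cGAS-KO over STING-KO, ran from -0.32 (Ripk3) to 0.47 (Zbp1). The 95% intervals of the difference limit what could have been missed: they ran from -0.29 to 0.39 for Casp8, from -0.35 to 0.26 for Cflar and from -0.49 to 0.24 for Ripk1. They were wider for Ripk3 (-1.04 to 0.40), Fas (-0.98 to 1.06) and Zbp1 (-0.51 to 1.45). Zbp1 was the only gene of the 10 whose libraries separated, as 40.9% of all genes did.

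**Figure D2:**
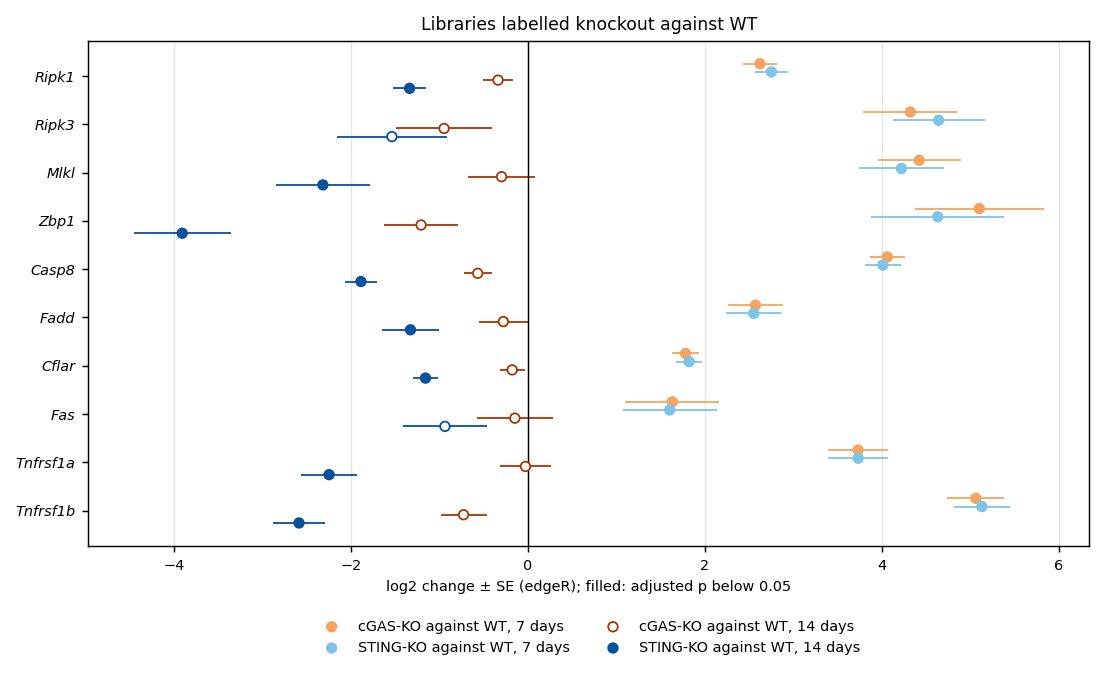
Log2 change of each gene in the libraries labelled cGAS-KO or STING-KO against WT at 7 and at 14 days, with bars of 1 SE from edgeR's quasi-likelihood fit (2 libraries per group); filled points passed an adjusted p of 0.05. All 10 genes lie above 0 for both labelled knockouts against WT at 7 days, and all 10 lie below 0 for STING-KO against WT at 14 days, where 8 passed the threshold.

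At 14 days the libraries labelled cGAS-KO differed from WT in none of the 10 genes by edgeR's quasi-likelihood test, where 0.0303% of all genes were called. DESeq2 also called 0, and 3 had an unadjusted p below 0.05. All 10 point estimates were below 0, with a median of -0.32 against -0.01 over all genes, and 6 of the 10 separated, as did 40.9% of genes. The 3 were Casp8 (-0.57 ± 0.16, adjusted p = 0.269), Zbp1 (-1.21 ± 0.42, adjusted p = 0.352) and Tnfrsf1b (-0.73 ± 0.26, adjusted p = 0.363) in edgeR. Their 95% intervals were -0.92 to -0.21, -2.13 to -0.29 and -1.31 to -0.15. For Ripk3 the difference was -0.95 ± 0.54 with an interval of -2.12 to 0.22, and for Mlkl -0.30 ± 0.38 with -1.13 to 0.52. Tnfrsf1a was nearest to 0, at -0.03 ± 0.29 (-0.67 to 0.62). None of the 15 microglia and macrophage markers and none of the 10 neuronal markers was called here, with medians of -0.31 and -0.01. Markers of striatal projection neurons had a median of 1.17 and those of cortical and hippocampal neurons one of -0.61, also without calls. Of 8 monocyte markers 1 was called lower (median -2.74), as was 1 of the 4 neutrophil markers tested (median -3.35); their part was not tested.

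The 14-day libraries labelled STING-KO were lower than WT in 8 of the 10 genes, where 17.4% of all genes were lower and 16.5% higher. The median of the 10 was -1.72, against -0.03 over all genes, and 9 separated, as did 63.5% of genes. Zbp1 fell furthest (-3.91 ± 0.55, edgeR adjusted p = 0.000385), then Tnfrsf1b (-2.59 ± 0.29, adjusted p = 0.000134), Mlkl (-2.32 ± 0.53, adjusted p = 0.00586) and Tnfrsf1a (-2.25 ± 0.32, adjusted p = 0.000463). Casp8 (-1.89 ± 0.18), Ripk1 (-1.34 ± 0.19), Fadd (-1.33 ± 0.32) and Cflar (-1.16 ± 0.14) fell with adjusted p of 0.00735 at most. Ripk3 was at -1.54 ± 0.62 (adjusted p = 0.0781) and Fas, whose libraries overlapped, at -0.94 ± 0.47 (adjusted p = 0.142). All 15 microglia and macrophage markers fell as well, by a median of -2.44, with 6 of 8 monocyte markers (median -2.95), 7 of 8 T and NK cell markers (-3.24, with the other higher) and 5 of 10 fibroblast and mural cell markers (-1.28). All 12 markers of striatal projection neurons rose, by a median of 2.71, and 5 of 10 neuronal markers rose. Cortical and hippocampal neuron markers went the other way, with 6 of 8 lower (median -3.13). Of the oligodendrocyte markers 7 of 8 were lower (-0.91), and of the astrocyte markers 5 of 8 (-0.76). The part of these cell types was not tested. Without 14-day STING-KO replicate 1 the Fadd call was lost (adjusted p = 0.0674, range 0.000945 to 0.0674) and Fas was called (0.0305, range 0.0305 to 0.611). Ripk3 was called by DESeq2 (0.0288), with the replicate number as a block (0.0346), by the legacy fit (0.0408) and without 7-day cGAS-KO replicate 1 (0.0419) or 2 (0.0409), over a range of 0.0288 to 0.265. The fall of Zbp1 was -3.28 without STING-KO replicate 1 and -4.96 without replicate 2, and without replicate 2 Tnfrsf1a was at -3.11 and Tnfrsf1b at -3.42.

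Between the labelled knockouts at 14 days, 8 of the 10 genes were higher in cGAS-KO, where 18.2% of all genes were higher and 17.7% lower, and all 10 separated, as did 65% of genes. The median was 1.19, against 0.04 over all genes. Zbp1 was higher by 2.70 ± 0.56 (edgeR adjusted p = 0.00392), Tnfrsf1a by 2.23 ± 0.32 (adjusted p = 0.000606), Mlkl by 2.02 ± 0.54 (adjusted p = 0.0124) and Tnfrsf1b by 1.87 ± 0.29 (adjusted p = 0.000848). Casp8 (1.32 ± 0.18), Fadd (1.06 ± 0.32), Ripk1 (1.01 ± 0.18) and Cflar (0.99 ± 0.14) were higher with adjusted p of 0.0223 at most, while Ripk3 (0.59 ± 0.68, adjusted p = 0.525) and Fas (0.80 ± 0.46, adjusted p = 0.203) were not called. This comparison shares the STING-KO libraries with the one before, and all 15 microglia and macrophage markers were higher too, by a median of 2.04. Of the striatal projection neuron markers 7 of 12 were lower (median -1.57), while 5 of 8 cortical and hippocampal ones were higher (2.14). The part of these cell types was not tested. The Mlkl call was lost without 14-day cGAS-KO replicate 2 (adjusted p = 0.0565) or STING-KO replicate 1 (0.0631) or 2 (0.0617), with a range of 0.00351 to 0.0631. The Fadd call was lost without cGAS-KO replicate 2 (0.148), without STING-KO replicate 1 (0.179) and with only the libraries compared (0.0905), with a range of 0.0087 to 0.179, while Fas was called without STING-KO replicate 1 (0.0414, range 0.0414 to 0.687). Zbp1 was higher by 1.92 without 14-day cGAS-KO replicate 2, by 2.06 without STING-KO replicate 1 and by 3.74 without STING-KO replicate 2. Without STING-KO replicate 2 Tnfrsf1a was higher by 3.08 and Tnfrsf1b by 2.69.

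Over time the groups moved in opposite directions. From 7 to 14 days all 10 genes rose in WT, where 24.1% of all genes rose and 19.7% fell, with a median of 2.39 against 0.07 over all genes, and all 10 separated, as did 76.2% of genes. Zbp1 rose most (6.21 ± 0.69, edgeR adjusted p = 4.59e-05), then Tnfrsf1b (3.55 ± 0.31, adjusted p = 1.07e-05), Casp8 (3.15 ± 0.20, adjusted p = 2.93e-06) and Mlkl (2.94 ± 0.56, adjusted p = 0.00127). Tnfrsf1a (2.54 ± 0.33), Fas (2.24 ± 0.51), Ripk3 (2.22 ± 0.66, adjusted p = 0.0179), Ripk1 (1.90 ± 0.19), Fadd (1.63 ± 0.32) and Cflar (1.48 ± 0.15) rose less. All 15 microglia and macrophage markers rose here, by a median of 3.59. So did 7 of 8 monocyte markers (median 3.99), all 8 T and NK cell markers (4.28) and 11 of 12 striatal projection neuron markers (2.67). In contrast, 9 of 10 neuronal markers (-1.68) and 6 of 8 cortical and hippocampal neuron markers (-2.1) fell. The part of these cell types was not tested. The Ripk3 call was lost without 7-day WT replicate 2 (adjusted p = 0.145) or 14-day WT replicate 1 (0.077), with a range of 0.00191 to 0.145. Without 7-day WT replicate 1 the rise of Ripk3 was 2.93 and that of Zbp1 8.56, and without WT replicate 2 that of Zbp1 was 5.30.

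In the libraries labelled cGAS-KO, 8 of the 10 genes fell from 7 to 14 days, where 17% of all genes fell and 13.4% rose, with a median of -1.22 against -0.01 over all genes, and 8 separated, as did 67.3% of genes. Ripk3 fell most (-3.05 ± 0.44, edgeR adjusted p = 0.000452), then Tnfrsf1b (-2.24 ± 0.27, adjusted p = 0.000182), Mlkl (-1.77 ± 0.33, adjusted p = 0.00202) and Casp8 (-1.48 ± 0.16, adjusted p = 0.000102). Fadd and Tnfrsf1a (both -1.22), Ripk1 (-1.05 ± 0.17) and Cflar (-0.48 ± 0.14, adjusted p = 0.0237) fell less. Zbp1 (-0.10 ± 0.43, adjusted p = 0.883) and Fas (0.46 ± 0.45, adjusted p = 0.473) were not called. Of the microglia and macrophage markers 7 fell and 1 rose (median -0.94). All 10 fibroblast and mural cell markers (median -3.20), 6 of 8 monocyte markers (-3.11) and all 8 choroid plexus markers (-3.60) fell, and 11 of 12 striatal projection neuron markers rose (3.20); the part of these cell types was not tested. Without 14-day cGAS-KO replicate 1 only 5 genes were called, with Fadd (adjusted p = 0.0647, range 0.00126 to 0.0647), Tnfrsf1a and Cflar lost. The Tnfrsf1a call was lost without 7-day cGAS-KO replicate 1 (0.0846) or 14-day cGAS-KO replicate 1 (0.0739) or 2 (0.0506), over a range of 0.000178 to 0.0846, and the Cflar call without any 1 of the 4 cGAS-KO libraries (0.0883 to 0.113), over a range of 0.00475 to 0.113.

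In the libraries labelled STING-KO, 9 of the 10 genes fell, where 29.5% of all genes fell and 27.4% rose, with a median of -2.55 against -0.04 over all genes, and 9 separated, as did 77.8% of genes. Tnfrsf1b (-4.18 ± 0.30, edgeR adjusted p = 1.19e-06), Ripk3 (-3.96 ± 0.49, adjusted p = 3.84e-05), Mlkl (-3.59 ± 0.46, adjusted p = 4.41e-05) and Tnfrsf1a (-3.45 ± 0.33, adjusted p = 8.45e-06) fell most. Casp8 (-2.76 ± 0.18), Zbp1 (-2.34 ± 0.58, adjusted p = 0.00503), Fadd (-2.26 ± 0.31), Ripk1 (-2.19 ± 0.18) and Cflar (-1.51 ± 0.14) fell less, and Fas was at -0.30 ± 0.48 (adjusted p = 0.61). Of the microglia and macrophage markers 14 fell, by a median of -3.21 over the 15, with 8 of 10 fibroblast and mural cell markers (median -2.57), 5 of 8 monocyte markers (-3.28) and 7 of 8 choroid plexus markers (-3.02). All 12 striatal projection neuron markers rose (4.66), while 3 of 8 cortical and hippocampal neuron markers fell (-1.19). The part of these cell types was not tested. The Zbp1 call was lost without 14-day STING-KO replicate 1 (-1.71, adjusted p = 0.0561, range 0.000142 to 0.0561). Without 14-day STING-KO replicate 2 Zbp1 was at -3.38, Tnfrsf1a at -4.30 and Tnfrsf1b at -5.00.

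**Figure D3:**
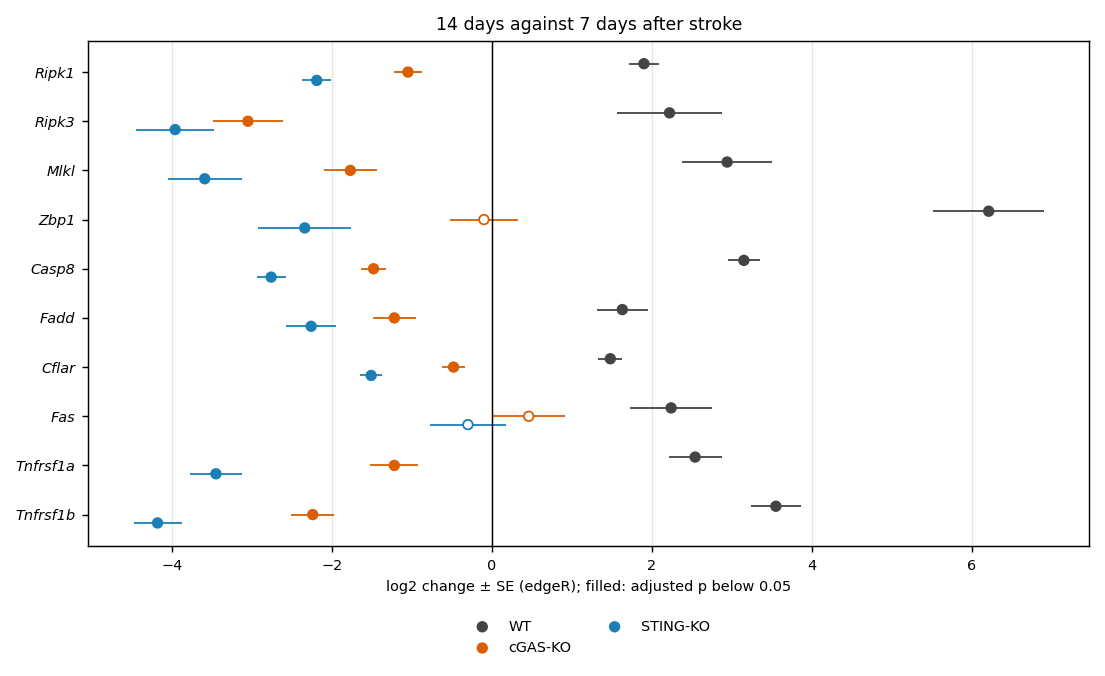
Log2 change of each gene from 7 to 14 days in the libraries of each labelled genotype, with bars of 1 SE (edgeR, 2 libraries per group); filled points passed an adjusted p of 0.05. All 10 genes lie above 0 in WT, while 8 fell in cGAS-KO and 9 in STING-KO; Fas is the member nearest to 0 in STING-KO.

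The change with time was set against WT in a test of the difference itself, the effect of a labelled knockout at 14 days minus its effect at 7 days. For STING-KO this difference was below 0 and called for all 10 genes, where 27.6% of all genes were called lower. It was largest for Zbp1 (-8.55 ± 0.91, edgeR adjusted p = 1.5e-05) and Tnfrsf1b (-7.73 ± 0.44, adjusted p = 1.52e-07) and smallest for Fas (-2.54 ± 0.71, adjusted p = 0.0104). Among the necroptosis genes it was -6.54 ± 0.72 for Mlkl and -6.17 ± 0.83 for Ripk3. For cGAS-KO the difference was called for 9 genes, where 21% of all genes were called lower, with Zbp1 at -6.31 ± 0.85 (adjusted p = 0.000177), Tnfrsf1b at -5.79 ± 0.41 (adjusted p = 2.93e-06) and Ripk3 at -5.26 ± 0.79 (adjusted p = 0.000301). Fas was the exception at -1.78 ± 0.69 (adjusted p = 0.0631). Both tests rest on the 7-day WT libraries, which stood apart, and all 15 microglia and macrophage markers were called lower in each. The Fas difference in cGAS-KO was called by DESeq2 (0.0387), with only the libraries compared (0.039), and without 7-day cGAS-KO replicate 2 (0.0305), 14-day WT replicate 2 (0.0362) or 14-day STING-KO replicate 1 (0.0286) or 2 (0.0285), over a range of 0.0285 to 0.277. Without 7-day WT replicate 1 the differences of Zbp1 and Ripk3 were -8.69 and -6.00 for cGAS-KO and -10.90 and -6.90 for STING-KO, and without WT replicate 2 those of Zbp1 were -5.40 and -7.64. For cGAS-KO Ripk3 was at -4.63 without 7-day cGAS-KO replicate 1, and Zbp1 at -7.09 without 14-day cGAS-KO replicate 2. For STING-KO Zbp1 was at -7.90 and Fas at -3.47 without 14-day STING-KO replicate 1, and Zbp1 at -9.57, Tnfrsf1a at -6.81 and Tnfrsf1b at -8.53 without replicate 2. When both groups that stood apart were left out of the fit, 3 of the comparisons could still be made. They called 0 genes for cGAS-KO against WT at 14 days, 0 for cGAS-KO against STING-KO at 7 days and 8 for 14 against 7 days in cGAS-KO, the counts given above.

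Because the microglia and macrophage markers moved with the genes, each gene's level was also divided by their summed level in the same library and given per 1000 CPM of markers. On this ratio scale the group means lay much closer for some members and not for others. The ratio of the highest to the lowest group mean became 1.59 for Mlkl, 1.85 for Casp8, 2.1 for Tnfrsf1a and 2.14 for Tnfrsf1b. It was 3.9 for Ripk3, 4.03 for Ripk1, 4.61 for Fadd, 7.47 for Zbp1, 7.75 for Cflar and 12.6 for Fas. The summed markers were 419 to 488 CPM in 7-day WT and 8880 to 12800 CPM in the 7-day libraries of the labelled knockouts. Any gene that rises by less than these markers falls on the ratio scale, and the share of all genes doing so was not computed. For 6 members the order of the 7-day groups turned round, with both WT libraries above all 4 libraries of the labelled knockouts. Cflar had 53.1 to 63.5 per 1000 marker CPM in 7-day WT against 7.03 to 10.2 there, Fas 4.13 to 5.49 against 0.439 to 1.03, Ripk1 12.9 to 13.2 against 2.80 to 4 and Fadd 4.88 to 6.43 against 1.20 to 1.77. The gap was smaller for Tnfrsf1a, at 22.3 to 23.1 against 10.9 to 17.4, and for Casp8, at 6.09 to 6.59 against 3.72 to 5.74. Tnfrsf1b stayed lower in 7-day WT, at 8.15 to 9.40 against 11.1 to 14.4, and the ranges of Ripk3, Mlkl and Zbp1 overlapped. Zbp1 stood at 3.69 to 5.31 in 14-day WT, at 1.33 to 3.16 in 14-day cGAS-KO and at 0.542 to 0.664 in 7-day STING-KO. The 2 libraries of 14-day STING-KO differed most in this ratio for Fas, at 1.67 and 11.7. For Ripk3 the lowest values were those of 14-day cGAS-KO, at 0.19 to 0.206, below all 7-day libraries, which lay at 0.469 to 1.07. These ratios are a description and carry no test, since the markers differ between the groups themselves.

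**Figure D4:**
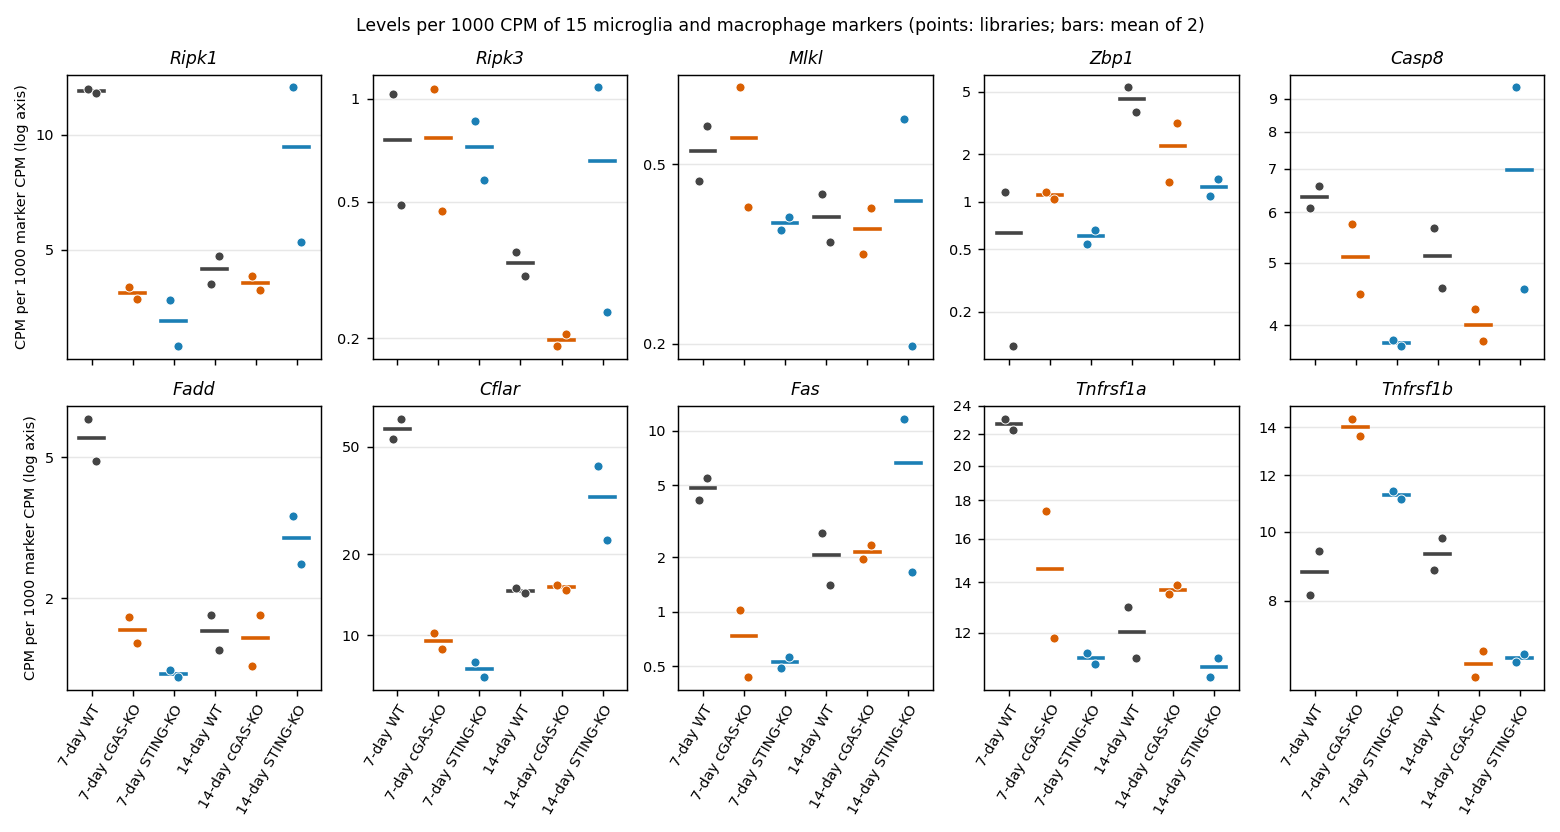
Level of each gene per 1000 CPM of the 15 microglia and macrophage markers in every library (log axis), by group; each point is 1 library. Single libraries run from 0.198 to 0.741 for Mlkl and from 3.72 to 9.37 for Casp8, Zbp1 is highest in 14-day WT at 3.69 to 5.31, and Cflar is highest in 7-day WT at 53.1 to 63.5.

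The members also differed in how closely they followed one another over the 12 libraries. Pearson's r of log2 CPM was 0.861 to 0.984 for the 28 pairs among the 8 members other than Zbp1 and Fas, and 0.477 to 0.866 for the 17 pairs with either of these. These libraries share their groups and the same differences in cell markers, so the values are a description. Among 16598 genes with a mean of at least 1 CPM, those most like each member in pattern were named by the highest r. Zbp1 was most like Ifi204 (0.992), Gm5431 (0.985) and Trim30a (0.982), and Ifi204 and Trim30a are known as interferon-induced genes. Ripk3 was most like Alox5ap (0.987), Akip1 (0.986) and Myof (0.984), and Mlkl most like Elk3 (0.994), Ptbp1 (0.993) and Rplp0 (0.992). Casp8 was most like Rab20, Ms4a6d and Gas2l3 (each 0.995), Tnfrsf1a most like Kctd11 (0.997), Sh3tc1 and Cd63 (both 0.996), and Tnfrsf1b most like Pon3 and Hpse (both 0.997) and Wdfy4 (0.996). Cflar was most like Scamp2 (0.997), Fcer1g and Spi1 (both 0.995), the last a myeloid transcription factor. Ripk1 was nearest to Rab32, Cd200r1 and Gm20707 (each 0.992) and Fadd to Stat6 (0.993), Myo1g (0.992) and Mob3c (0.991). Fas had no such close partner, with Fcf1 at 0.947, Ammecr1l at 0.943 and Gkap1 at 0.941.

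The rest of the pathway was read from 4 lists, whose counts stand beside those of all tested genes: 27.8% higher and 22.4% lower in 7-day cGAS-KO against WT, 26.3% and 22.6% in 7-day STING-KO, and 16.5% and 17.4% in 14-day STING-KO. From 7 to 14 days in WT 24.1% of all genes rose and 19.7% fell. The death ligands and other death receptors (13 genes, 12 tested, Lta not) had 7-day medians nearer to the members' than the other lists: in 7-day cGAS-KO against WT 9 rose and 1 fell (median 2.33), and in 7-day STING-KO 8 rose and 1 fell (median 2.11). Tnf, the ligand of both TNF receptors, had 0.0561 and 0 CPM in 7-day WT, 5.19 and 3.09 CPM in 7-day cGAS-KO and 8.83 and 7.26 CPM in 7-day STING-KO. By 14 days Tnf stood at 1.64 and 1.15 CPM in WT libraries, 0.133 and 0.899 CPM in cGAS-KO and 0 in both STING-KO libraries, under the floor of 3 counts. Tnf thus had its highest levels in the same 7-day groups as its receptors. Tnfsf12, which encodes the ligand TWEAK, averaged 4.37 CPM in 7-day WT against 27.7 CPM in 7-day cGAS-KO (log2 change 2.66 ± 0.29, edgeR adjusted p = 1.53e-05), and the lymphotoxin receptor Ltbr rose by 3.20 ± 0.42 (adjusted p = 8.97e-05). Fasl, the ligand of Fas, was scarce throughout, at 1.11 CPM or less in every library. In 14-day STING-KO against WT 7 of these 12 genes fell and 0 rose (median -1.3), Tnfsf12 among them (-2.30 ± 0.33, adjusted p = 0.000388); without 14-day STING-KO replicate 1 the count was 4. Over time 7 rose and 2 fell in WT, 4 and 0 without 7-day WT replicate 2.

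The proteins of the TNF receptor complex and its brakes (30 genes) held more rises than falls at 7 days. Of the 30, 16 rose and 3 fell in cGAS-KO against WT (median 0.53), where 27.8% of all genes rose and 22.4% fell, and 17 rose and 3 fell in STING-KO (median 0.56). Ikbke, a kinase related to TBK1, rose by 3.98 ± 0.26 in cGAS-KO (edgeR adjusted p = 5.07e-07), Nfkb1 by 1.55 ± 0.13 (adjusted p = 2.16e-06) and Birc3, the ubiquitin ligase cIAP2 that marks RIPK1, by 3.25 ± 0.32 (adjusted p = 7.71e-06). In 14-day STING-KO against WT 15 fell and 4 rose (median -0.44). Cyld, the deubiquitinase that removes chains from RIPK1, went against the members there: it averaged 423 CPM in STING-KO and 123 CPM in WT (1.78 ± 0.16, adjusted p = 3.58e-05). In 14-day STING-KO the list's calls were fewer with only the libraries compared (1 rose and 7 fell) and without 14-day WT replicate 1 (2 rose and 9 fell).

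Of 31 caspases and genes of mitochondrial apoptosis, 16 rose and 6 fell in 7-day cGAS-KO against WT (median 0.76), where 27.8% of all genes rose and 22.4% fell, and 18 rose and 6 fell in STING-KO (median 0.71). Bcl2l11, which encodes the death activator BIM, averaged 59.6 CPM in 7-day cGAS-KO and 6.71 CPM in WT (3.15 ± 0.23, edgeR adjusted p = 8.43e-07). Mcl1, a guard against mitochondrial apoptosis, rose by 1.62 ± 0.15 (adjusted p = 5.12e-06). In 14-day STING-KO against WT 17 fell and 3 rose (median -0.75), with 11 falling and 0 rising without 14-day WT replicate 1, and the same counts without 14-day STING-KO replicate 1 or with only the libraries compared.

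The necroptosis cofactors and inducers of RIPK3 and ZBP1 (24 genes) rose in 14 cases and fell in 4 in 7-day cGAS-KO against WT (median 0.8), with 14 and 5 in STING-KO (median 0.79). The interferon receptor chain Ifnar2 rose by 2.32 ± 0.16 in cGAS-KO (edgeR adjusted p = 6.02e-07), and the receptor kinases Axl (1.88 ± 0.17) and Mertk (1.85 ± 0.17), known from clearance of dead cells, rose with it. In 14-day STING-KO against WT 11 fell and 3 rose (median -0.27), including the interferon signalling genes Irf1 (-2.31 ± 0.31, adjusted p = 0.000267) and Stat2 (-1.67 ± 0.24, adjusted p = 0.000389). From 7 to 14 days in WT 14 rose and 4 fell (median 0.7), where 24.1% of all genes rose and 19.7% fell. Irf9, a transcription factor of interferon signalling, rose there by 2.52 ± 0.23 (adjusted p = 1.05e-05) and the double-stranded RNA sensor Tlr3 by 2.08 ± 0.19 (adjusted p = 1.12e-05).

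In cGAS-KO against WT at 14 days edgeR called none of the tested genes of the 4 lists. At an unadjusted p below 0.05 there were 1 of the ligands and receptors, 2 of the TNF receptor complex, 4 of the apoptosis genes and 5 of the necroptosis cofactors, and DESeq2 called 1 apoptosis gene. In cGAS-KO against STING-KO at 7 days edgeR also called none, with 4, 3, 3 and 0 at an unadjusted p below 0.05, and DESeq2 called 1 gene of the TNF receptor complex. From 7 to 14 days 8 of the 12 ligands and receptors fell in cGAS-KO and 9 in STING-KO, with 0 rising in either. Of the apoptosis genes 16 fell and 0 rose in cGAS-KO, and 21 fell and 4 rose in STING-KO. The other lists were more mixed. In the TNF receptor complex 7 fell and 4 rose in cGAS-KO, and 16 fell and 8 rose in STING-KO. Among the necroptosis cofactors 8 fell and 4 rose in cGAS-KO, and 12 fell and 6 rose in STING-KO. Over all genes 17% fell and 13.4% rose in cGAS-KO and 29.5% and 27.4% in STING-KO. The cGAS-KO counts over time moved with single libraries: the 16 calls among the apoptosis genes became 7 without 7-day cGAS-KO replicate 1 or 14-day cGAS-KO replicate 1 and 9 without 14-day cGAS-KO replicate 2, and the 8 ligands and receptors became 5 without 7-day cGAS-KO replicate 1.

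**Figure D5:**
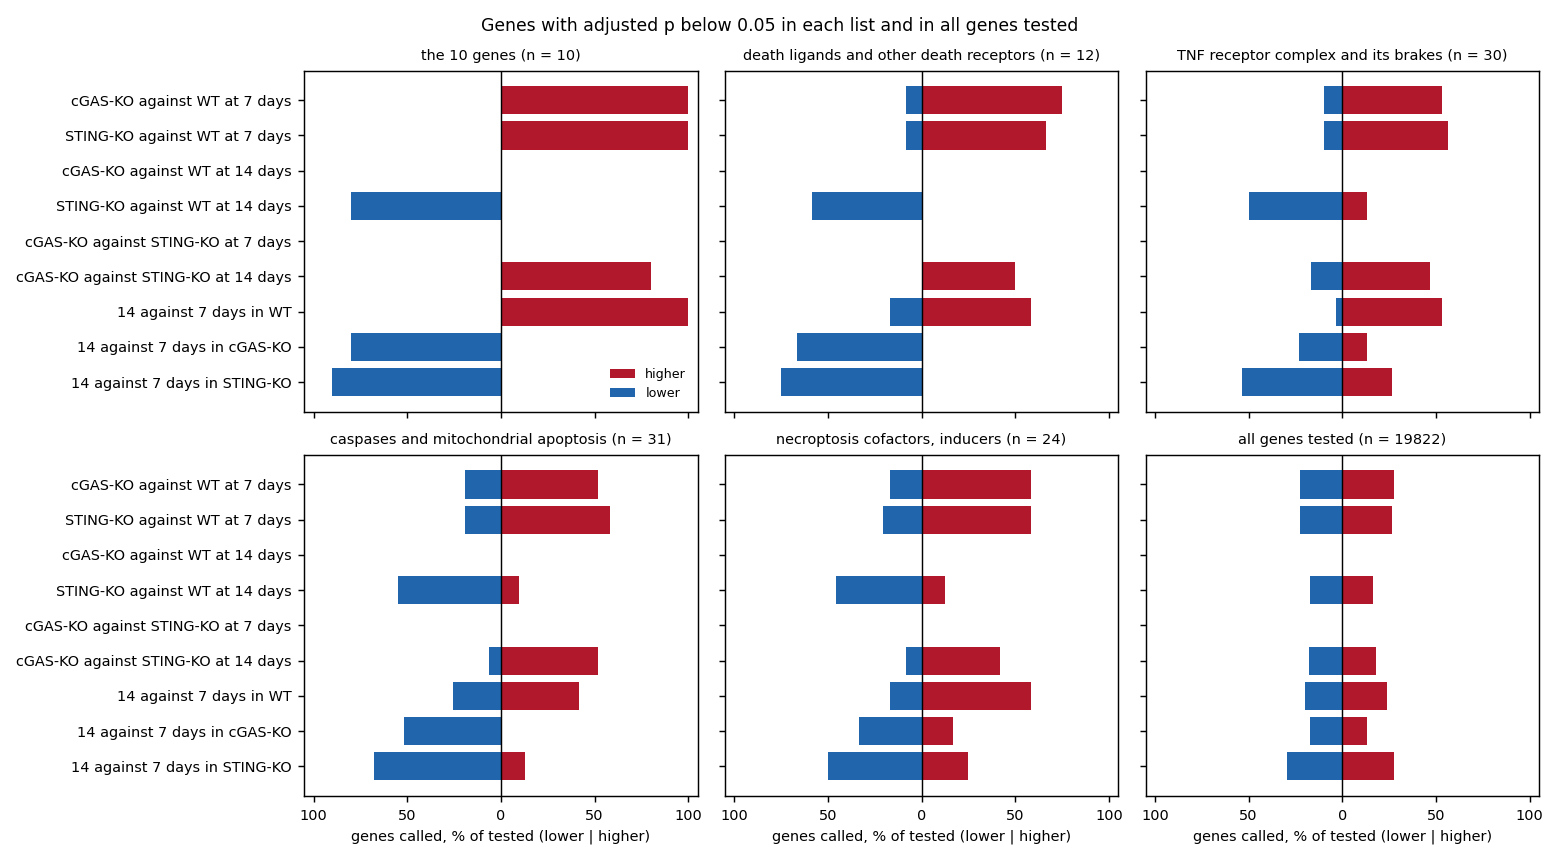
Share of tested genes called higher (right) and lower (left) by edgeR at an adjusted p below 0.05, in percent, for the 10 genes, each of the 4 pathway lists and all 19822 genes tested, with 1 bar per comparison. The 10 genes were called in 1 direction only in each comparison with calls, while the TNF receptor complex list held both rises and falls wherever it held calls, such as 16 and 3 in 7-day cGAS-KO against WT.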

How the data were processed

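RNA of the mouse striatum after ischemic stroke was measured in 12 polyA+ RNA-seq libraries, 2 in each of 6 groups of labelled genotype and day. Each library has 1 deposited file of raw counts by Ensembl gene; per the submitters' processing notes, HISAT2, mm10 and featureCounts were used, and versions, annotation release and strand setting are not given in the sources used here. Symbols, coordinates and exon lengths came from GENCODE M21 (GRCm38), which named 54495 of 54532 IDs. Tests on the counts used edgeR 4.0.16 (R 4.3.3): filterByExpr (minimum count 10, minimum total 15) kept 19822 genes, TMM factors were used, and 1 fit with 1 factor of 6 groups left 6 residual degrees of freedom (robust glmQLFit in the newer form, biological coefficient of variation 0.194). P-values of 11 contrasts were Benjamini-Hochberg adjusted over all genes, with a threshold of 0.05. The SE was taken as the size of the log2 change divided by the root of its F statistic. Shown CPM use TMM-scaled totals, RPKM divide by exon length, and principal components and correlations use log2 CPM with a prior of 0.5.

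The members, gene lists, markers and tests were chosen with earlier results of these data known. The text names all members, up to 3 genes per list and comparison with the smallest adjusted p, and for each member the 3 genes of highest r; Tnf and Fasl were also named, as ligands of members, after their values were seen. Alternatives were DESeq2 1.42.0 (its size factors in edgeR, and its Wald test), a fit of the compared libraries alone, the legacy fit, a block for the replicate number, no filter or a stricter one (1 CPM and 10 counts in 2 libraries), and each library left out, when the lone library is assumed to vary like the other groups. A fit that leaves out both groups that stood apart (WT at 7 days, STING-KO at 14 days) was chosen after seeing the data. The test was tried on simulated data. Protein sequences were not analysed here. Plots were made in python 3.11.15 with matplotlib 3.10.9.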

Additional observations from a re-analysis of the deposited data

Results flagged for a closer look

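The effect of a labelled knockout against WT differed between 7 and 14 days in a test of that difference itself (an interaction term in edgeR), for 9 members in cGAS-KO and 10 in STING-KO. All 19 differences, the log2 effect at 14 days minus that at 7 days, were below 0. Over all genes 21% were called lower in cGAS-KO and 27.6% in STING-KO. In either direction the shares were 36.7% and 51.9%. Among the death receptors, Tnfrsf1b differed by -5.79 in cGAS-KO and -7.73 in STING-KO, Tnfrsf1a by -3.75 and -5.98, and Fas by -2.54 in STING-KO. For the caspase-8 branch the values in cGAS-KO and STING-KO were -4.63 and -5.91 for Casp8, -2.85 and -3.89 for Fadd and -1.95 and -2.98 for Cflar. In the necroptosis branch they were -2.96 and -4.09 for Ripk1, -5.26 and -6.17 for Ripk3, -4.72 and -6.54 for Mlkl, and -6.31 and -8.55 for Zbp1. Every one of these differences uses the 7-day WT libraries, and those in STING-KO also the 14-day STING-KO libraries. These groups stood apart at the low end of the first principal component and in marker sums. No interaction could be computed without 7-day WT, so the values have no counterpart free of these libraries.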

How the results depend on the processing

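Single members kept direction and side of the threshold in 1267 of 1320 values with a library left out and in 790 of 800 under the other settings. The number of members called moved by more than 1.5 times only for 14 against 7 days in cGAS-KO, 5 to 8 with a library left out, against 8. Signs turned only in uncalled differences, and the cause was not tested. For cGAS-KO against STING-KO at 7 days they spanned, with a library left out, -0.27 to 0.02 (Ripk1), -0.90 to 0.08 (Ripk3), -0.18 to 0.48 (Mlkl), -0.04 to 0.10 (Casp8), -0.01 to 0.04 (Fadd), -0.57 to 0.45 (Fas) and -0.20 to 0.14 (Tnfrsf1a); Tnfrsf1a was also at 0.00 with only the libraries compared. For cGAS-KO against WT at 14 days they spanned -0.54 to 0.36 (Fas) and -0.12 to 0.06 (Tnfrsf1a), for Zbp1 over time in cGAS-KO -0.90 to 0.38 and for Fas over time in STING-KO -1.25 to 0.23. Replicates share only a number: the 15 correlations of same-numbered deviations ran from -0.073 to 0.164. With the replicate number as a block, Fas in cGAS-KO against STING-KO at 7 days was -0.02 and Tnfrsf1a 0.00, Ripk3 joined the calls of STING-KO against WT at 14 days (9 in place of 8), and the other 10 counts of members called were the same. Over all genes, cGAS-KO against WT at 14 days had 6 calls, but 51 higher and 87 lower by DESeq2, 5 and 24 with no filter and 3 and 13 with only the libraries compared. For cGAS-KO against STING-KO at 7 days the 32 calls became 148 higher and 116 lower by DESeq2, 28 and 32 with no filter, 1 and 1 with only the libraries compared and 1 and 5 in the legacy fit. With DESeq2's size factors no group mean of a member moved by over 1.025-fold. Ripk3, Mlkl and Zbp1 had fewer than 10 counts in at least 1 library of 7-day WT or 14-day STING-KO. Their changes are uncertain where these groups are compared. Fas had more counts, but its calls against WT at 7 days were also uncertain, being lost without single libraries.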
